A study of Bos taurus with 24 samples.

Results

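In the bovine adrenal gland, 7 of the 27570 Ensembl gene IDs in the count files were examined across 24 female calves. The reason was that each was found at 2 separate levels between calves at both ages, though not every ID showed both levels in every group. The IDs were ENSBTAG00000039664, ENSBTAG00000046980, ENSBTAG00000040367, ENSBTAG00000011985, ENSBTAG00000014234, ENSBTAG00000052662 and ENSBTAG00000006383. They were chosen by their measured counts in these same 24 libraries, so the 2 levels are given as a description with no test. All 7 were among the 15693 IDs that passed the filter on low counts. For the 5 IDs with a level at or near 0, that passage came from the calves at the high level.

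The calves fell into 4 groups of 6. Calves cooled before birth (in utero cooled, IUCL) and calves heat-stressed before birth (in utero heat stressed, IUHS) were sampled at birth (day 0) or at weaning (day 63), and each calf gave 1 library from adrenal tissue. The calves at birth and at weaning were different animals, so no level was followed with age in 1 calf. The labels give no breed, sire, genotype or batch. Calves of 1 number in different groups share only that number.

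The adrenal gland is built of a cortex that makes steroid hormones and a medulla that makes catecholamines, and whole tissue mixes the RNA of both with that of vessels, nerves and blood cells. For most genes, the level in such tissue differs between animals by degrees around a group mean. For a gene with 2 levels, a group mean describes neither kind of animal and moves with how many of each kind the group holds. In bulk tissue, fewer cells of a type and less RNA per cell cannot be told apart.

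No names were paired with the IDs in the sources used here, so the IDs are described by their values, and neither their roles nor the marker genes of adrenal cells could be set beside them. Library totals ranged from 12261651 to 19012206 counts. A count of 0 allowed up to 3 counts, which is 0.158 to 0.245 CPM (the count scaled per 1000000 counts of the library) depending on the library, and this limit covers counting error only. IUCL calf 3 at birth stood apart on the fourth principal component (score -41.8, others of its group 1.83 to 5.00), and IUHS calf 28 at weaning on the third (35.9, others -6.79 to 2.11). For each ID the totals of the high and low libraries overlapped.

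The level of an ID was read from its 24 values of log2(CPM + 0.1), split at the widest gap between neighbouring values. That gap ran from 3.20 on the log2 scale for ENSBTAG00000006383 to 5.07 for ENSBTAG00000039664, while the second widest gap of an ID was at most 0.89. Between 4 and 16 calves were at the high level. Both levels held calves of both ages for all 7 IDs. Only ENSBTAG00000040367 and ENSBTAG00000006383 had reads in every calf.

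**Figure D1:**
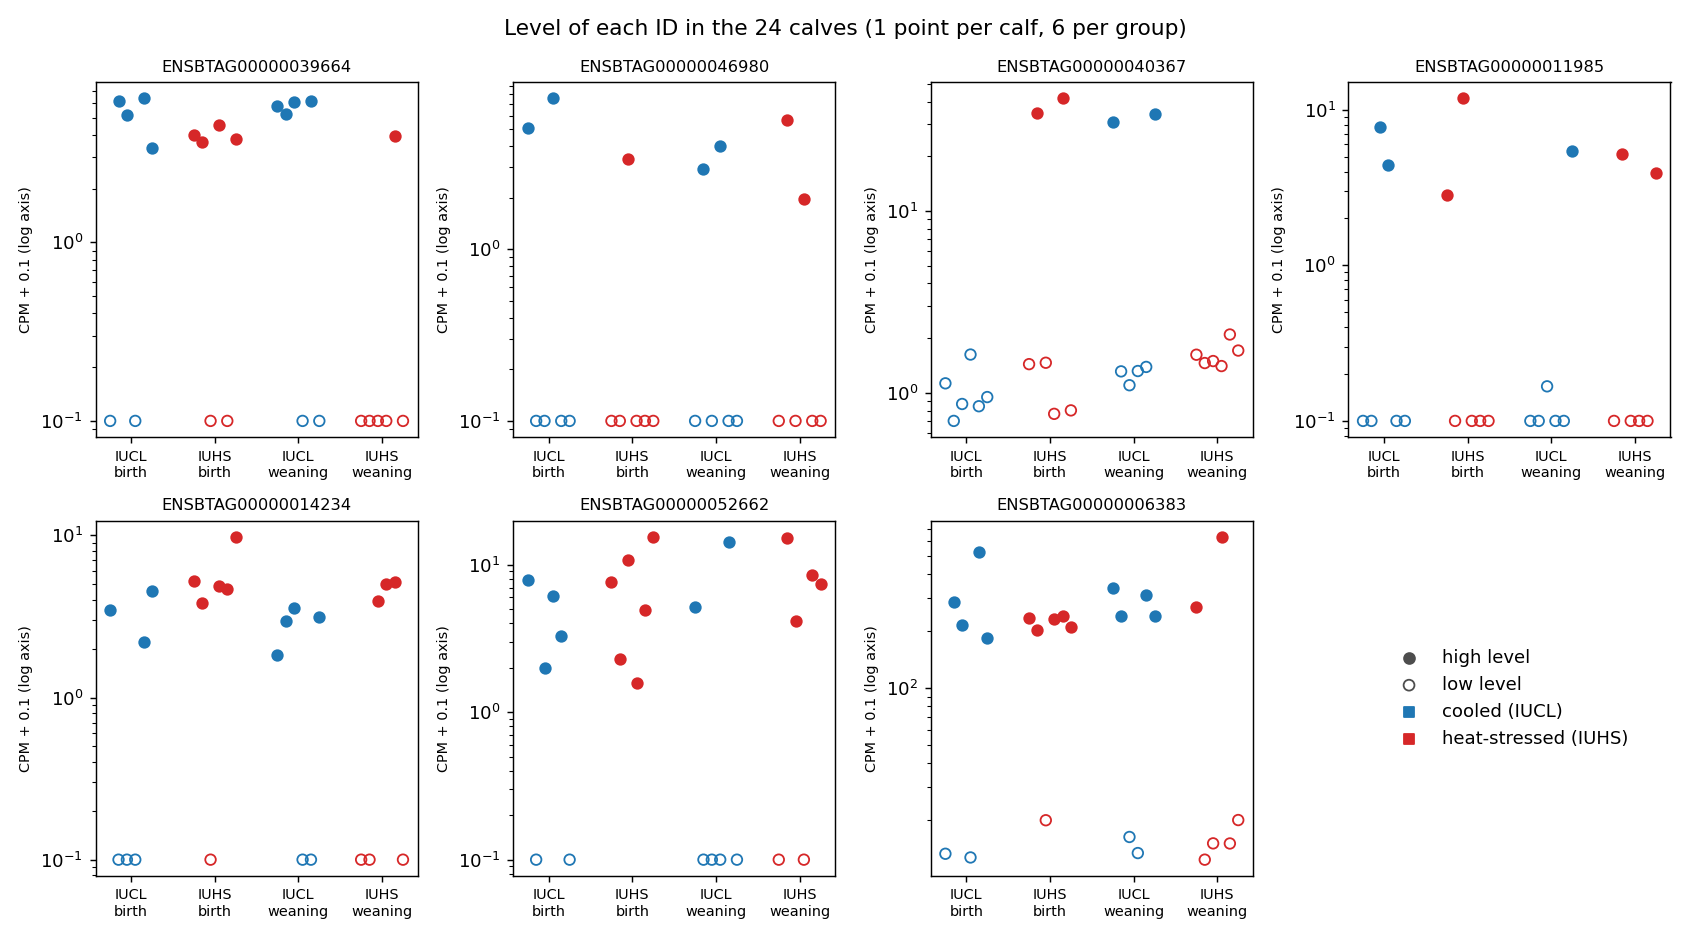
Each panel shows 1 ID, with 1 point per calf by group on the x axis and CPM + 0.1 on a log y axis, filled at the high and open at the low level. ENSBTAG00000040367 and ENSBTAG00000006383 keep reads at their low level, and the other 5 IDs lie at 0 there apart from 1 read of ENSBTAG00000011985 in 1 calf.

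The most abundant of the 7, ENSBTAG00000006383, had reads in all calves at both levels. At birth, IUCL calves 2, 3, 6 and 7 had 286, 215, 523 and 184 CPM and IUHS calves 1, 2, 5, 7 and 8 had 236, 204, 231, 241 and 212 CPM. At weaning, IUCL calves 13, 15, 20 and 22 had 337, 242, 309.7 and 239 CPM and IUHS calves 18 and 28 had 270.0 and 629.8 CPM. The 15 calves at this high level were joined by 9 at a low level of 12.2 to 19.9 CPM, from 153 to 349 counts each.

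The low calves of ENSBTAG00000006383 were IUCL calves 1 and 5 and IUHS calf 4 at birth, and IUCL calves 17 and 19 and IUHS calves 23, 25, 29 and 31 at weaning. The lowest high calf lay 9.26-fold above the highest low calf, and the median high level of 241 CPM was 16.1-fold the median low level of 14.9 CPM. IUCL calf 6 at birth and IUHS calf 28 at weaning lay more than 1 log2 unit above the median of the high level, and the next calf below them was IUCL calf 13 at 337 CPM. Low medians were alike at both ages, at 13.2 CPM at birth and 14.9 CPM at weaning. No calf lay between the levels, that is, more than 1 log2 unit from both medians and below the high one.

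ENSBTAG00000040367 also kept reads in every calf. Its high level held 4 calves: IUHS calves 2 and 7 at birth with 34.6 and 41.5 CPM, and IUCL calves 13 and 22 at weaning with 30.9 and 33.96 CPM. These came from 426 to 570 counts each and spanned 1.34-fold, the narrowest high level of the 7 IDs. The other 20 calves held 0.601 to 1.99 CPM, from 9 to 29 counts. The lowest high calf was 15.5-fold above the highest low calf.

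In this ID the low level was 0.601 to 1.53 CPM with a median of 0.809 at birth, and 1.002 to 1.99 CPM with a median of 1.33 at weaning, so the ages overlapped. IUCL calves at birth and IUHS calves at weaning had no high calf. No calf lay between the levels. The 4 high libraries had totals between 12810096 and 13788473 counts, inside the range of the low libraries but all below the median total of the libraries.

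ENSBTAG00000039664 had the widest gap and an exact 0 in 11 calves. At birth, IUCL calves 2, 3, 6 and 7 had 6.08, 5.09, 6.30 and 3.26 CPM and IUHS calves 1, 2, 5 and 8 had 3.88, 3.53, 4.47 and 3.68 CPM. At weaning, IUCL calves 13, 15, 17 and 20 had 5.73, 5.14, 6.01 and 6.10 CPM, and IUHS calf 29 had 3.85 CPM. The 13 high calves had 48 to 104 counts, and the lowest of them was at least 13.3-fold higher than the limit of 3 counts in a calf at 0. This fold, like those against that limit below, takes the measured value of the high calf and leaves out its counting error.

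The high calves of ENSBTAG00000039664 spanned 1.93-fold, with no calf more than 1 log2 unit from the high median. The 5 heat-stressed calves in it lay between 3.53 and 4.47 CPM, and the 8 cooled calves between 3.26 and 6.30 CPM, 7 of them at 5.09 CPM or more. These calves were picked by their level, and the treatments were not compared by a test within it. IUHS calves at weaning had 1 high calf of 6, and the other 3 groups had 4 of 6 each.

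ENSBTAG00000046980 was at 0 in 17 calves. Its 7 high calves were IUCL calves 1 and 5 at birth with 5.00 and 7.47 CPM, IUHS calf 4 at birth with 3.24 CPM, IUCL calves 15 and 19 at weaning with 2.86 and 3.87 CPM, and IUHS calves 23 and 28 at weaning with 5.60 and 1.88 CPM. Counts in them ran from 23 to 142, and the lowest was at least 8.01-fold higher than the limit of 3 counts. IUHS calf 28 at weaning, 1 of the libraries that stood apart, was more than 1 log2 unit below the median high level of 3.87 CPM.

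ENSBTAG00000011985 was likewise high in 7 calves, but in a different set. IUCL calves 3 and 5 at birth had 7.63 and 4.31 CPM, IUHS calves 1 and 4 at birth 2.75 and 11.7 CPM, IUCL calf 22 at weaning 5.31 CPM, and IUHS calves 23 and 31 at weaning 5.12 and 3.80 CPM. Of the other 17 calves 16 were at 0, and IUCL calf 17 at weaning had 1 count, 0.0668 CPM. The lowest high calf was 41.2-fold above that single count, with an exact 95% counting interval from 6.96 to 1667. IUHS calf 4 at birth lay more than 1 log2 unit above the median high level of 5.12 CPM.

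ENSBTAG00000014234 was high in 15 calves and at 0 in 9. At birth, IUCL calves 1, 6 and 7 had 3.38, 2.10 and 4.44 CPM and IUHS calves 1, 2, 5, 7 and 8 had 5.15, 3.75, 4.80, 4.59 and 9.64 CPM. At weaning, IUCL calves 13, 15, 17 and 22 had 1.74, 2.86, 3.47 and 3.04 CPM and IUHS calves 25, 28 and 29 had 3.84, 4.89 and 5.09 CPM. The high level thus spanned 5.54-fold around a median of 3.84 CPM, and IUCL calf 13 at weaning lay more than 1 log2 unit below this median and IUHS calf 8 at birth as far above it.

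The lowest high calf of ENSBTAG00000014234, with 24 counts, was at least 7.26-fold higher than the limit of 3 counts. Only IUHS calf 4 was at 0 among the heat-stressed calves at birth.

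ENSBTAG00000052662 had the most high calves, 16, and the high level with the widest span. At birth, IUCL calves 1, 3, 5 and 6 had 7.79, 1.89, 6.00 and 3.18 CPM and all 6 IUHS calves, numbers 1, 2, 4, 5, 7 and 8, had 7.47, 2.20, 10.7, 1.47, 4.81 and 15.3 CPM. At weaning, IUCL calves 13 and 20 had 5.08 and 14.1 CPM and IUHS calves 23, 25, 29 and 31 had 14.95, 4.05, 8.46 and 7.34 CPM. The other 8 calves were at 0.

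Values within the high level of ENSBTAG00000052662 spanned 10.4-fold, more than in any other of the 7 IDs. Around the median of 6.67 CPM, 4 calves lay between the levels, IUCL calves 3 and 6 and IUHS calves 2 and 5 at birth, and 3 calves lay above, IUHS calf 8 at birth, IUCL calf 20 and IUHS calf 23 at weaning. The gap to the calves at 0 was nevertheless 3.97 on the log2 scale, and the lowest high calf, with 22 counts, was at least 6.00-fold higher than the limit of 3 counts. That calf, IUHS calf 5 at birth, had a 95% counting interval of 0.920 to 2.22 CPM.

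The chi-square per degree of freedom of the counts in each high level is given as a description of calves picked by their level. Separate animals are not expected to differ by counting error alone. The value also grows with the counts, so it does not order IDs of unlike counts by how uniform they were. It was lowest for ENSBTAG00000039664 at 3.92 and for ENSBTAG00000040367 at 7.82, though the high calves of the first spanned 1.93-fold and those of the second 1.34-fold. It was 12.7 for ENSBTAG00000014234, 12.9 for ENSBTAG00000046980, 25.6 for ENSBTAG00000011985 and 43.8 for ENSBTAG00000052662. For ENSBTAG00000006383 it was 729, at 2774 to 7727 counts per high calf.

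The same pattern was counted over all tested IDs. Of the 15693 IDs tested, 12 (0.0765%) had a widest gap of at least 2 log2 units with at least 3 calves and both ages on each side, and the 7 chosen IDs were among these 12. As they were chosen for this pattern, nothing is read from their count. The other 5 were ENSBTAG00000021565 (21 high calves, lowest of them 4.61 CPM, others at 0), ENSBTAG00000038128 (10 high, gap 3.003), ENSBTAG00000026437 (8 high, gap 2.94), ENSBTAG00000003989 (17 high, gap 2.54) and ENSBTAG00000009656 (9 high, gap 2.24). ENSBTAG00000021565 had the widest gap of all 12, 5.56, and the 7 chosen IDs ranked from the second to the eighth. All 12 split the calves differently: no pair of them had the same high calves.

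The high calves were then compared between the 7 IDs. In the 21 pairs of IDs, 6 to 18 of 24 calves were at the same level in both (median 13), and 0 pairs were identical. The pair most alike was ENSBTAG00000039664 with ENSBTAG00000006383. They shared 11 high calves, 84.6% of the 13 high for the first and 73.3% of the 15 high for the second, and both were low in 7 calves.

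IUCL calf 17 and IUHS calf 29 at weaning were high for ENSBTAG00000039664 and low for ENSBTAG00000006383, and the reverse held for 4 calves. ENSBTAG00000014234 was close to both, with 16 of 24 calves at the same level in each pair. It shared 10 high calves with ENSBTAG00000039664 (66.7% of its own 15 and 76.9% of the 13) and 11 with ENSBTAG00000006383 (73.3% of each list). The 4 high calves of ENSBTAG00000040367 were all high for both ENSBTAG00000014234 and ENSBTAG00000006383, where they made up 26.7% of each list. Each of these 2 IDs was high in 62.5% of all 24 calves.

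**Figure D2:**
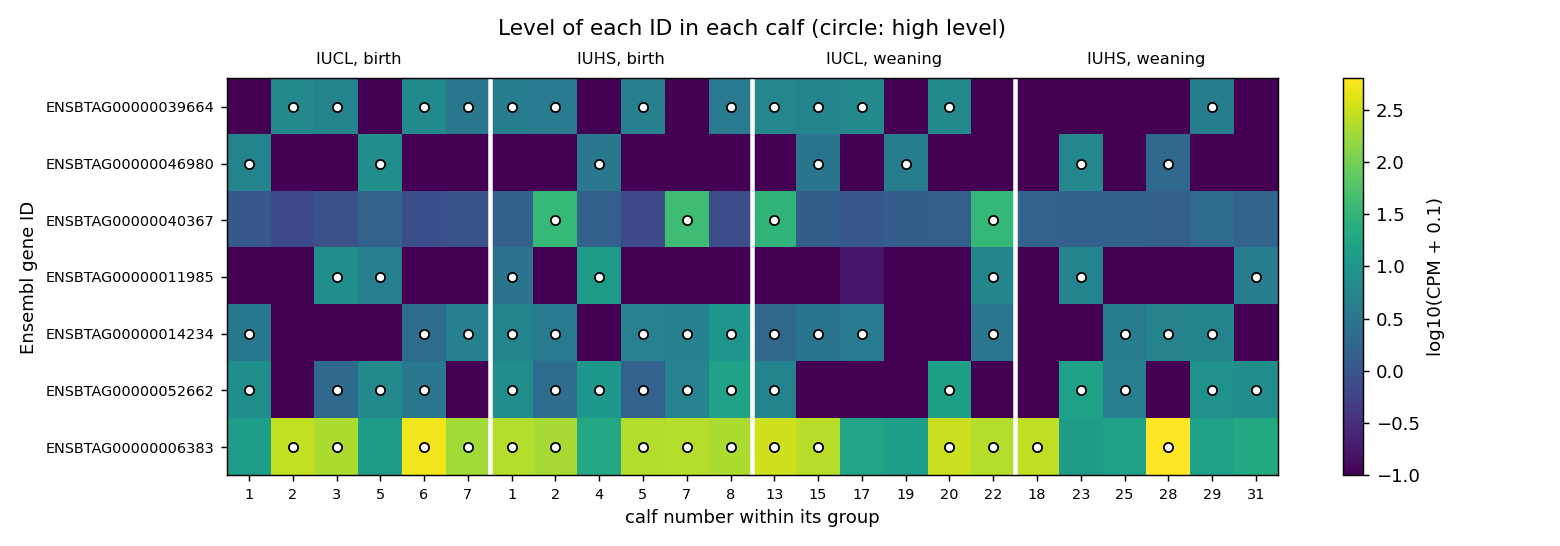
Rows are the 7 IDs and columns the 24 calves by group and number, coloured by log10(CPM + 0.1), with a circle at the high level. The rows of ENSBTAG00000039664 and ENSBTAG00000046980 share a circle in 1 calf, IUCL calf 15 at weaning, and no 2 rows have the same circles.

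ENSBTAG00000046980 and ENSBTAG00000039664 were at the same level in 6 of 24 calves, the lowest number of any pair. The same number held for ENSBTAG00000046980 with ENSBTAG00000006383 and for ENSBTAG00000011985 with ENSBTAG00000014234. Of the 7 high calves of ENSBTAG00000046980, 1 was high for ENSBTAG00000039664, IUCL calf 15 at weaning with 2.86 and 5.14 CPM. The other 6 were at 0 there. Of all 24 calves, 54.2% were high for ENSBTAG00000039664. A further 12 calves were high only for ENSBTAG00000039664, and 5 were low for both. With ENSBTAG00000040367, ENSBTAG00000046980 shared 0 high calves, the single pair of the 21 with none. Only 4 calves, 16.7% of all 24, were high for ENSBTAG00000040367, so nothing is read from this lack of overlap. With ENSBTAG00000006383, ENSBTAG00000046980 shared 2, IUCL calf 15 and IUHS calf 28 at weaning, 28.6% of its own list and 13.3% of the other.

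Of the 7 high calves of ENSBTAG00000011985, 6 (85.7%) were high for ENSBTAG00000052662, where they made up 37.5% of 16, and the exception was IUCL calf 22 at weaning. Of all 24 calves, 66.7% were high for ENSBTAG00000052662. With ENSBTAG00000014234, ENSBTAG00000011985 shared 2 high calves, IUHS calf 1 at birth and IUCL calf 22 at weaning. It shared 3 of 7 high calves (42.9%) with ENSBTAG00000046980: IUCL calf 5 and IUHS calf 4 at birth and IUHS calf 23 at weaning. ENSBTAG00000046980 was high in 29.2% of all 24 calves.

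**Figure D3:**
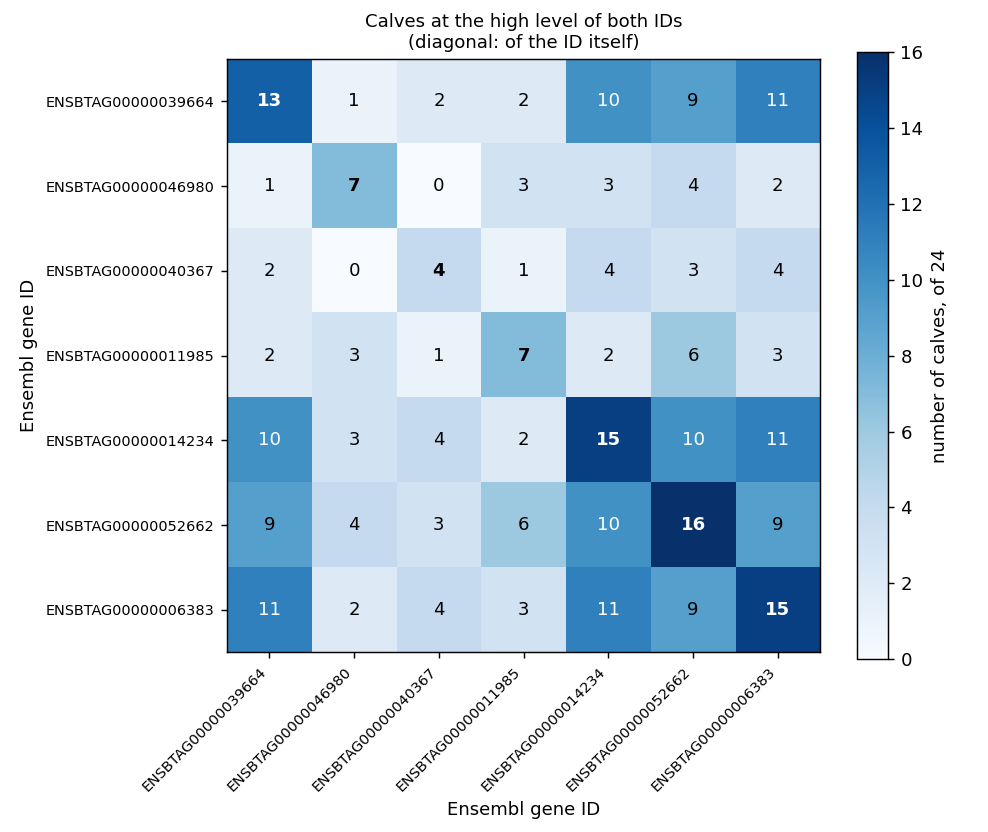
Each cell gives the number of calves, of 24, at the high level of both the row and the column ID, and the diagonal the number for the ID itself. The largest numbers off the diagonal are 11, for ENSBTAG00000006383 with ENSBTAG00000039664 and with ENSBTAG00000014234, and the only 0 is for ENSBTAG00000046980 with ENSBTAG00000040367.

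Per calf, 1 to 5 of the 7 IDs were high (median 3). The 24 calves showed 19 different combinations, of which 16 occurred in a single calf. IUCL calf 5 and IUHS calf 4 at birth and IUHS calf 23 at weaning shared the combination of ENSBTAG00000046980, ENSBTAG00000011985 and ENSBTAG00000052662. IUCL calf 6, IUHS calf 5 and IUHS calf 8 at birth shared that of ENSBTAG00000039664, ENSBTAG00000014234, ENSBTAG00000052662 and ENSBTAG00000006383. IUHS calf 2 at birth and IUCL calf 13 at weaning shared these same 4 with ENSBTAG00000040367 added. Each shared combination thus held calves of both treatments.

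Other IDs that followed a split were then sought. An ID followed a split where every high calf of the chosen ID lay above, or every one below, all its low calves. Among the other 15692 IDs tested, none did so for ENSBTAG00000039664, ENSBTAG00000046980, ENSBTAG00000014234, ENSBTAG00000052662 or ENSBTAG00000006383. For ENSBTAG00000040367, with 4 high calves, ENSBTAG00000003743 lay above (1.53 to 2.76 against 0.0816 to 1.43 CPM), and ENSBTAG00000016235 (18.3 to 28.6 against 30.0 to 43.7 CPM) and ENSBTAG00000015529 (23.4 to 31.8 against 32.5 to 46.7 CPM) lay below. ENSBTAG00000018401 lay below for ENSBTAG00000011985 (5.15 to 8.80 against 8.94 to 14.4 CPM). These 4 IDs had gaps of 0.02 to 0.09 on the log2 scale and ran without a break between the 2 sets of calves.

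When all 18673 other IDs with a mean count of at least 1 were searched, 1 more ID was found. ENSBTAG00000046742, with a gap of 1.44 on the log2 scale, below the 2 used for the on-off pattern, had reads in the 7 high calves of ENSBTAG00000046980 and 0 counts in the other 17. Its counts were 13 and 24 in IUCL calves 1 and 5 at birth, 3 in IUHS calf 4 at birth, 5 and 23 in IUCL calves 15 and 19 at weaning, and 13 and 4 in IUHS calves 23 and 28 at weaning. In the same order ENSBTAG00000046980 had 68, 142, 57, 40, 54, 70 and 23 counts.

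Over the 7 calves the counts summed to 454 for ENSBTAG00000046980 and 85 for ENSBTAG00000046742, a ratio of 5.34, and the ratio per calf ran from 2.35 in IUCL calf 19 at weaning to 19 in IUHS calf 4 at birth. Pearson's r of log2(CPM + 0.1) over the 24 libraries was 0.96, with 17 libraries at 0 for both. ENSBTAG00000046742 had not passed the low-count filter. At 3 counts (0.171 CPM), IUHS calf 4 at birth was at the limit that a count of 0 allows in 1 library. By counting error it could thus not be told from any 1 calf at 0. That limit does not cover a comparison with all 17 calves at 0 as a set, which was not tested. Whether reads of 1 ID were counted for the other was not tested.

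**Figure D4:**
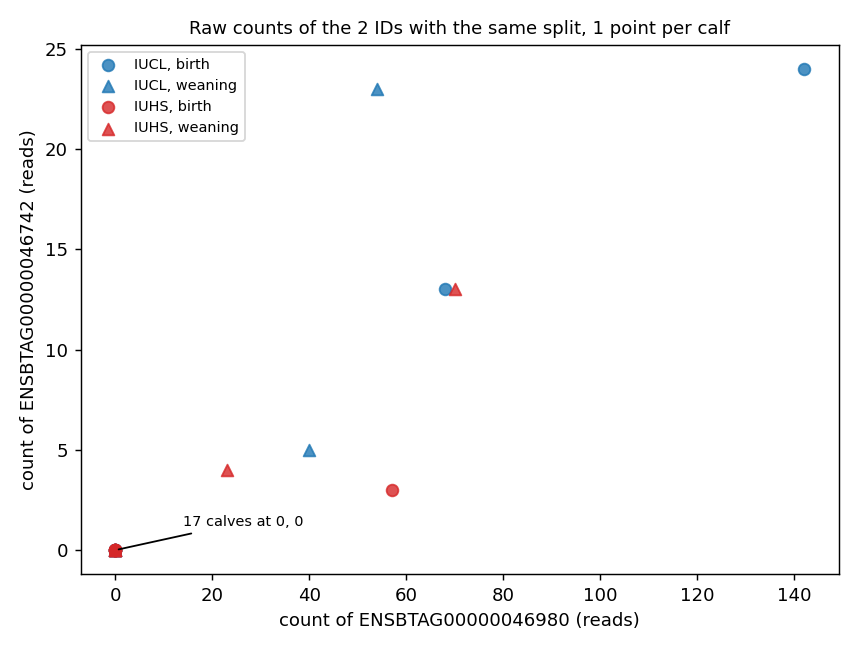
Raw counts of ENSBTAG00000046980 (x axis) and ENSBTAG00000046742 (y axis) are shown with 1 point per calf, coloured by treatment and shaped by age. The 17 calves without reads of 1 ID had none of the other, and the 7 remaining calves ran from 23 to 142 counts on the x axis and from 3 to 24 on the y axis.

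Likeness short of a full split was measured among the tested IDs by Pearson's r of log2(CPM + 0.1) over the 24 libraries. Differences between libraries in depth scaling or tissue make-up can act on many IDs at once, and their part in r was not tested. IDs were ranked from the highest r down, so IDs with a negative r were left out of the ranking. Among those named above, r was -0.79 for ENSBTAG00000018401 with ENSBTAG00000011985. With ENSBTAG00000040367 it was -0.77 for ENSBTAG00000016235 and -0.63 for ENSBTAG00000015529. The highest value belonged to ENSBTAG00000051588 with ENSBTAG00000011985 (r = 0.77). Its values were 6.56 to 109 CPM in the high and 1.39 to 10.5 CPM in the low calves, so the sets overlapped. ENSBTAG00000032301 was nearest to ENSBTAG00000006383 (r = 0.73), with 0.409 to 1.49 against 0.129 to 0.853 CPM and 11 of 15 high calves above every low calf. For the other members the nearest IDs were ENSBTAG00000054738 for ENSBTAG00000052662 (r = 0.71), ENSBTAG00000012636 for ENSBTAG00000014234 (r = 0.71), ENSBTAG00000021210 for ENSBTAG00000046980 (r = 0.61), ENSBTAG00000017346 for ENSBTAG00000040367 (r = 0.61) and ENSBTAG00000030198 for ENSBTAG00000039664 (r = 0.59). In all 7 of these nearest IDs the high and low calves overlapped.

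The next 2 IDs by r were ENSBTAG00000004639 and ENSBTAG00000033749 for ENSBTAG00000039664 (r = 0.57 and 0.55), ENSBTAG00000006790 and ENSBTAG00000054574 for ENSBTAG00000046980 (0.61 and 0.60), and ENSBTAG00000053071 and ENSBTAG00000036111 for ENSBTAG00000040367 (0.60 and 0.60). They were ENSBTAG00000006832 and ENSBTAG00000021521 for ENSBTAG00000011985 (r = 0.70 and 0.70), and ENSBTAG00000018604 and ENSBTAG00000016294 for ENSBTAG00000014234 (0.70 and 0.70). For ENSBTAG00000052662 they were ENSBTAG00000043959 and ENSBTAG00000005711 (r = 0.67 and 0.65), and for ENSBTAG00000006383 ENSBTAG00000035158 and ENSBTAG00000009432 (r = 0.61 and 0.60).

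The number of high calves per group was set out next, to see how the levels fell across the study's treatments and ages. At birth, heat-stressed and cooled calves had 4 and 4 high calves of 6 for ENSBTAG00000039664, 1 and 2 for ENSBTAG00000046980, 2 and 0 for ENSBTAG00000040367, and 2 and 2 for ENSBTAG00000011985. For ENSBTAG00000014234 the numbers were 5 and 3, for ENSBTAG00000052662 6 and 4, and for ENSBTAG00000006383 5 and 4. At weaning, in the same order of treatments and IDs, they were 1 and 4, 2 and 2, 0 and 2, 2 and 1, 3 and 4, 4 and 2, and 2 and 4. No ID had its high calves in 1 treatment only.

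By age, 8 birth and 5 weaning calves of 12 each were high for ENSBTAG00000039664, 3 and 4 for ENSBTAG00000046980, 2 and 2 for ENSBTAG00000040367, 4 and 3 for ENSBTAG00000011985, 8 and 7 for ENSBTAG00000014234, 10 and 6 for ENSBTAG00000052662, and 9 and 6 for ENSBTAG00000006383. The high levels of both ages overlapped for 6 of the 7 IDs, the exception being ENSBTAG00000040367 with 2 high calves at each age. Medians were 231 and 289.9 CPM for ENSBTAG00000006383 and 4.17 and 5.73 CPM for ENSBTAG00000039664 at birth and at weaning. No test of age is given, since presence at both ages was part of the choice.

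Heat stress was compared with cooling by edgeR's quasi-likelihood test over all 15693 IDs, with p-values adjusted by the Benjamini-Hochberg method over all of them. At birth 0 of the 7 IDs passed the threshold of 0.05, against 0% of all IDs, and 1 of 7 had an unadjusted p under 0.05, against 3.93% of all. At weaning the numbers were again 0 (all IDs 0%) and 1 (all IDs 6.99%). Averaged over ages they were 0 (all IDs 0%) and 0 (all IDs 4.61%), and for the interaction (the treatment difference at weaning minus that at birth) 0 (all IDs 0%) and 1 (all IDs 5.56%). The ID under 0.05 unadjusted was ENSBTAG00000040367 each time.

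DESeq2 gave 1 of 7 under an unadjusted 0.05 at birth (all IDs 4.61%), 1 at weaning (7.58%), 1 for the interaction (6.16%) and 0 for the mean of both ages (5.37%). With limma-voom 0 of 7 were under it in each comparison, against 4.03%, 6.56%, 5.1% and 4.16% of all IDs in the same order. After adjustment limma-voom called 0% of all IDs in each, and DESeq2 called 1 ID at weaning, not among the 7, and 1 for the interaction, each 0.00637% of all.

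Single libraries moved the edgeR counts under an unadjusted 0.05. At birth it was 2 of 7 without IUHS calf 4, with ENSBTAG00000046980 added. At weaning it was 3 without IUCL calf 22, with ENSBTAG00000039664 and ENSBTAG00000011985 added, and 2 without IUCL calf 19 or without IUHS calf 29, with ENSBTAG00000039664 added. Averaged over ages it was 1, and for the interaction 2, without IUHS calf 4 at birth (ENSBTAG00000046980) or without IUHS calf 29 at weaning (ENSBTAG00000039664). None of these passed after adjustment. The median log2 difference of the 7 IDs was 0.27 at birth and 0.11 at weaning. For every ID the ranges of heat-stressed and cooled calves overlapped at both ages.

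For ENSBTAG00000040367 the log2 difference between heat-stressed and cooled calves was 3.78 ± 1.09 (SE) at birth and -2.88 ± 1.04 at weaning (edgeR adjusted p = 0.999913 and 0.639). Its group medians were 1.35 against 0.809 CPM at birth and 1.46 against 1.25 CPM at weaning, so the differences came from 2 high calves at each age. The interaction was -6.66 ± 1.51 (edgeR adjusted p = 0.893). DESeq2 gave an adjusted p of 0.0116 for it, the lowest of the alternatives, which reached 0.9999. This ID was already known for that interaction when the 7 were chosen. An exact two-sided permutation test of log2(CPM + 0.1), 6 against 6 calves, gave p = 0.158 at birth and 0.455 at weaning, unadjusted.

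ENSBTAG00000039664 had the largest difference in the number of high calves, 1 of 6 heat-stressed against 4 of 6 cooled calves at weaning. Its levels in heat-stressed calves ran from 0 to 3.85 CPM with a median of 0, and in cooled calves from 0 to 6.10 CPM with a median of 5.43 CPM. The log2 difference was -2.60 ± 1.36 (edgeR adjusted p = 0.735; exact permutation p = 0.0606, unadjusted). Without IUHS calf 29 at weaning, its group was at 0 throughout. At birth the difference was -0.47 ± 1.24 (edgeR adjusted p = 0.999913).

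The other 5 IDs had log2 differences with SEs of 0.997 to 1.73 over both ages, so a 2-fold difference, 1 on the log2 scale, was not detectable here. At birth they were 1.497 ± 1.21 for ENSBTAG00000014234, 1.16 ± 1.23 for ENSBTAG00000052662, 0.27 ± 1.62 for ENSBTAG00000011985, -0.17 ± 0.997 for ENSBTAG00000006383 and -1.82 ± 1.66 for ENSBTAG00000046980. At weaning they were 0.33 ± 1.21, 0.78 ± 1.22, 0.83 ± 1.73, -0.20 ± 0.998 and 0.11 ± 1.64 in the same order. Among the 14 exact permutation tests of the 7 IDs at the 2 ages, the smallest unadjusted p after that of ENSBTAG00000039664 was 0.0779, for ENSBTAG00000014234 at birth. The smallest p a test of 6 against 6 allows is 0.00216, but calves tied at 0 raise it. It was 0.182 for ENSBTAG00000046980 at birth and 0.0606 for ENSBTAG00000046980 at weaning and for ENSBTAG00000011985 at both ages, so these 4 of the 14 tests could not pass 0.05. It was 0.0152 for ENSBTAG00000039664 at weaning. Without 1 calf, the log2 difference of ENSBTAG00000011985 at birth went from 0.27 to -1.92 (without IUHS calf 4). That of ENSBTAG00000046980 at birth went from -1.82 to -0.726 without IUCL calf 5, and to -7.95 without IUHS calf 4, a fitted value against a group at 0 and no measure of size.

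**Figure D5:**
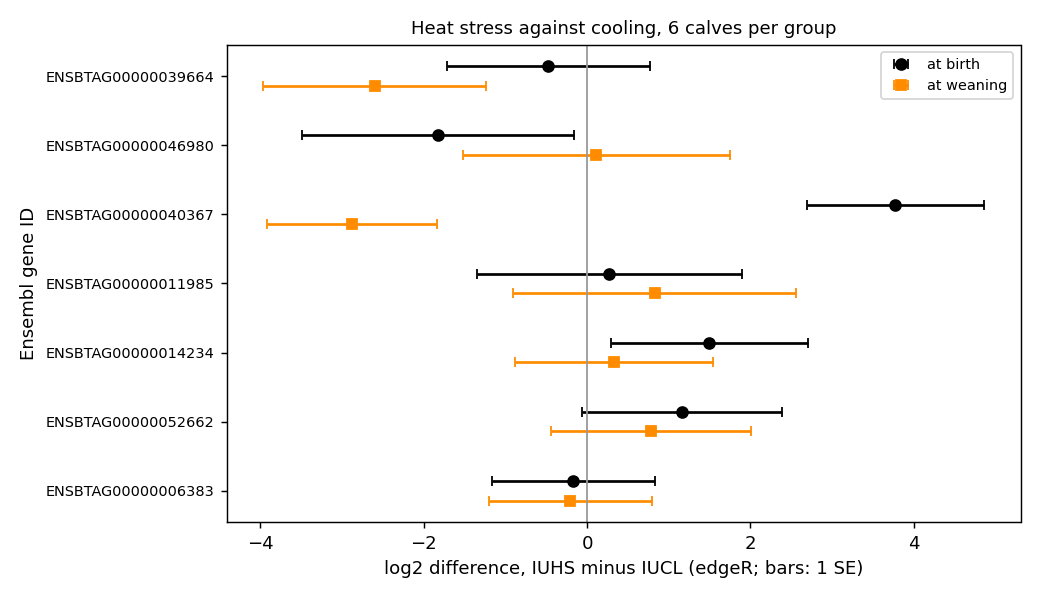
Points are edgeR's log2 differences between heat-stressed and cooled calves for each ID, at birth (black) and at weaning (orange), 6 calves per group. Bars are 1 SE, derived from the F statistic of the test. The points farthest from 0 belong to ENSBTAG00000040367, 3.78 at birth and -2.88 at weaning, and 0 of the 14 passed the threshold.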

How the data were processed

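The deposited files held raw read counts per Ensembl gene ID, 1 library per calf, per the file headers. The submitters' processing notes name FastQC 0.11.7, Trim Galore 0.4.4, HISAT2, HTSeq and the genome build ARS-UCD1.2. The strand setting and annotation release are not given in the sources used here, so reads of overlapping, antisense or near-identical genes may have been split or pooled. The members and rules were chosen with earlier results of these data known. CPM was the count scaled to the library's sum over all IDs. All 24 libraries, grouped by labelled treatment and age, entered 1 edgeR 4.0.16 quasi-likelihood fit (R 4.3.3, TMM, filterByExpr with minimum count 10 and total 15). The SE of an edgeR log2 difference was derived from the test, as the absolute difference divided by the square root of the F statistic. DESeq2 1.42.0, limma-voom 3.58.1, other scalings, no filter and left-out libraries were alternatives. All 7 IDs were named; for each, up to 3 IDs that followed its split (widest gap) and the 3 with the highest r were named too. The fit was tested on data simulated around a single mean per ID, apart from planted changes between groups. Those data lacked the on-off pattern, so that test does not cover the 7 IDs. P-values came from tests that set differences between groups against the spread between calves. The lowest chi-square per degree of freedom over 276 library pairs was 15.3. Python 3.11.15 and scipy 1.17.1 were used. The IDs could not be matched to names or sequences with the tables used here.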

Additional observations from a re-analysis of the deposited data

Results flagged for a closer look

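In 28 sets of 6 CPM values (7 IDs in 4 groups), Dixon's test set 7 values apart. The IDs were chosen because these values fall at 2 levels, and a lone high calf among calves at 0 always passes, so the usual chance rate of about 1 in 20 does not apply and the values are given only as a description. ENSBTAG00000039664 was at 3.852 CPM in IUHS calf 29 at weaning, with the other 5 calves at 0. ENSBTAG00000046980 was at 3.242 CPM in IUHS calf 4 at birth, with the others at 0, and at 5.598 CPM in IUHS calf 23 at weaning, with the next at 1.876 CPM. ENSBTAG00000011985 was at 11.72 CPM in IUHS calf 4 at birth (next 2.749) and at 5.308 CPM in IUCL calf 22 at weaning (next 0.06681). ENSBTAG00000052662 was at 14.07 CPM in IUCL calf 20 at weaning (next 5.077). ENSBTAG00000006383 was at 19.85 CPM in IUHS calf 4 at birth, where the other 5 calves were at 203.8 CPM or more. IUHS calf 4 at birth thus accounted for 3 of the 7 values.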

How the results depend on the processing

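Every calf kept its level for all 7 IDs with pseudocounts of 0.5 and 0.02, TMM-scaled CPM, a 2-means split and each other library left out. The on-off pattern covered 0.0574% of IDs with a gap of at least 3 and 0.075% of IDs with a mean count of at least 1. None of the 7 passed between treatments in any fit except 1 in DESeq2's interaction (ENSBTAG00000040367), where 1 ID of all passed. Of 439 alternative log2 differences, 29 changed sign, all of them without a call; the cause was not tested. With limma-voom these were -0.184 for ENSBTAG00000011985 and 0.56 for ENSBTAG00000006383 at birth, and -0.134 for ENSBTAG00000046980 and -0.596 for ENSBTAG00000014234 at weaning. Differences of mean log2(CPM + 0.1) were -0.00317, 0.585, -0.0101 and -0.43 in the same order. Without both libraries that stood apart, ENSBTAG00000046980 and ENSBTAG00000014234 were at -0.103 and -0.0731 at weaning.

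With each library left out in turn, differences at birth ran from -1.92 (without IUHS calf 4) to 1.47 for ENSBTAG00000011985, from -0.429 to 0.368 (without IUCL calf 6) for ENSBTAG00000006383 and from -7.95 (without IUHS calf 4) to -0.726 (without IUCL calf 5) for ENSBTAG00000046980. At weaning they ran from -1.55 (without IUHS calf 23) to 1.09 for ENSBTAG00000046980, from -0.00879 to 6.08 for ENSBTAG00000011985 (without IUCL calf 22 the cooled group had a single count), from -0.0752 to 0.643 for ENSBTAG00000014234, from -1.56 to 0.0497 for ENSBTAG00000006383, from 0.287 to 2.44 for ENSBTAG00000052662 and from -8.87 (without IUHS calf 29) to -2.33 for ENSBTAG00000039664.

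A replicate block used the 4 numbers shared by birth groups, on 8 libraries. Same-numbered calves had correlations of deviations of -0.123, -0.105, 0.169 and 0.295, so the numbers were not taken as pairs. The block fit called 0 of 5 IDs fitted, and ENSBTAG00000039664 and ENSBTAG00000006383 were at 1.15 and 2.02. That fit also left out the birth calves whose numbers were not shared, so these values do not show the block alone. At 22 to 261 counts per high calf in the 5 IDs with a low level at or near 0, depth limits the precision of each value.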
